A study of Glycine max with 6 samples.

Results

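Cytochrome P450 genes of soybean were followed in 2 photosynthetic layers of the leaf. The members are the soybean probe sets whose single gene symbol, or a synonym of that gene, is CYP followed by a number and a letter, with CYP93E1 and IFS2 left out. This rule found 49 probe sets for 30 genes, out of 37593 soybean probe sets on the array, 8674 of which carry a single symbol. Of the 30 genes, 19 have 1 probe set and 11 have several. They span 16 P450 families, and 1 further gene, LOC100789410, carries synonyms of both CYP81 and CYP82 (CYP81E10 and CYP82E13) and was put in no family.

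Both groups came from mature leaves of untreated soybean plants kept in growth chambers, and neither a strain nor a genotype is stated in the labels. Paraveinal mesophyll (PVM) is a cell layer between palisade and spongy tissue, and palisade parenchyma (PP) is the upper photosynthetic layer. Each was cut from fixed, paraffin-embedded sections by laser microdissection, in 3 biological replicates, and the cells of a sample were pooled. The RNA was amplified and hybridised to 1 Affymetrix array per sample. For the PP samples 1 label field, the description, speaks of paraveinal cells; their titles, sources and cell types say palisade, and the latter reading was used. The labels do not say if samples of the layers shared plants.

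P450s are haem enzymes, most of which sit in the endoplasmic reticulum membrane, take electrons from a reductase and insert an oxygen atom into a substrate. In plants the family number groups enzymes by sequence, and families tend to serve given pathways, such as lignin and flavonoid synthesis, carotenoids, oxylipins, brassinosteroids, triterpenes and defence compounds. Leaf PVM of soybean is known for storing vegetative storage proteins and lipoxygenases. Probe-set intensities depend on the probes as well as on the transcript, so values are compared between arrays for a probe set, not between genes.

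The labelled layers were checked with marker lists chosen with earlier results of these data known. The summed intensity of 5 PVM markers (VSPA, VSPB, LOX7, LOX9 and LOXB1, on 24 probe sets) was 96495 to 108390 on PVM arrays and 42257 to 63721 on PP arrays. That of 5 markers of green mesophyll (12 probe sets of CAB3, LHCP and Rubisco activases) was 66694 to 93962 and 108325 to 121794. After normalization these differed less: 8 of 11 tested probe sets were lower in PVM, by a median of -0.25 on the log2 scale (range -0.68 to 0.21), and the layers did not overlap on 3. Of 8 vascular markers only SUT1 was annotated, at a sum of 279 to 964 in PVM and 359 to 515 in PP over 3 probe sets. Of 4 guard cell markers only MYB60 was, at 35.6 to 433 and 24.0 to 91.5 over 4 probe sets, and none of 5 epidermal markers was. These markers were matched by symbol or synonym, so MYB60 stands for guard cells by name only. The part of vascular, guard or epidermal cells in the results below was not tested. PP arrays 1 and 2 correlated at 0.947 over the tested probe sets, against 0.811 to 0.885 for the other pairs. PVM arrays correlated with each other at 0.847 to 0.870, and with PP arrays at 0.811 to 0.878. By this measure the PVM arrays did not group apart from the PP arrays.

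Of the 30 P450 genes, 12 were above background on every array of both layers, and 8 were at or below it on every array. A probe set was counted as above background on an array where it exceeded the 95th percentile of the 23350 probe sets for other organisms on that array, an intensity of 11.0 to 20.7. Of the 49 P450 probe sets, 16 (32.7%) were above background on no array, against 12.9% of 8674 soybean probe sets with a single symbol and 18.3% of all soybean probe sets. On all 3 PVM arrays 22 (44.9%) were above background, against 67.7% of single-symbol and 54.5% of all soybean probe sets. On all 3 PP arrays 16 (32.7%) were, against 64.6% and 52.2%. In samples of pooled tissue, fewer cells of a type and less RNA per cell cannot be told apart.

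**Figure D1:**
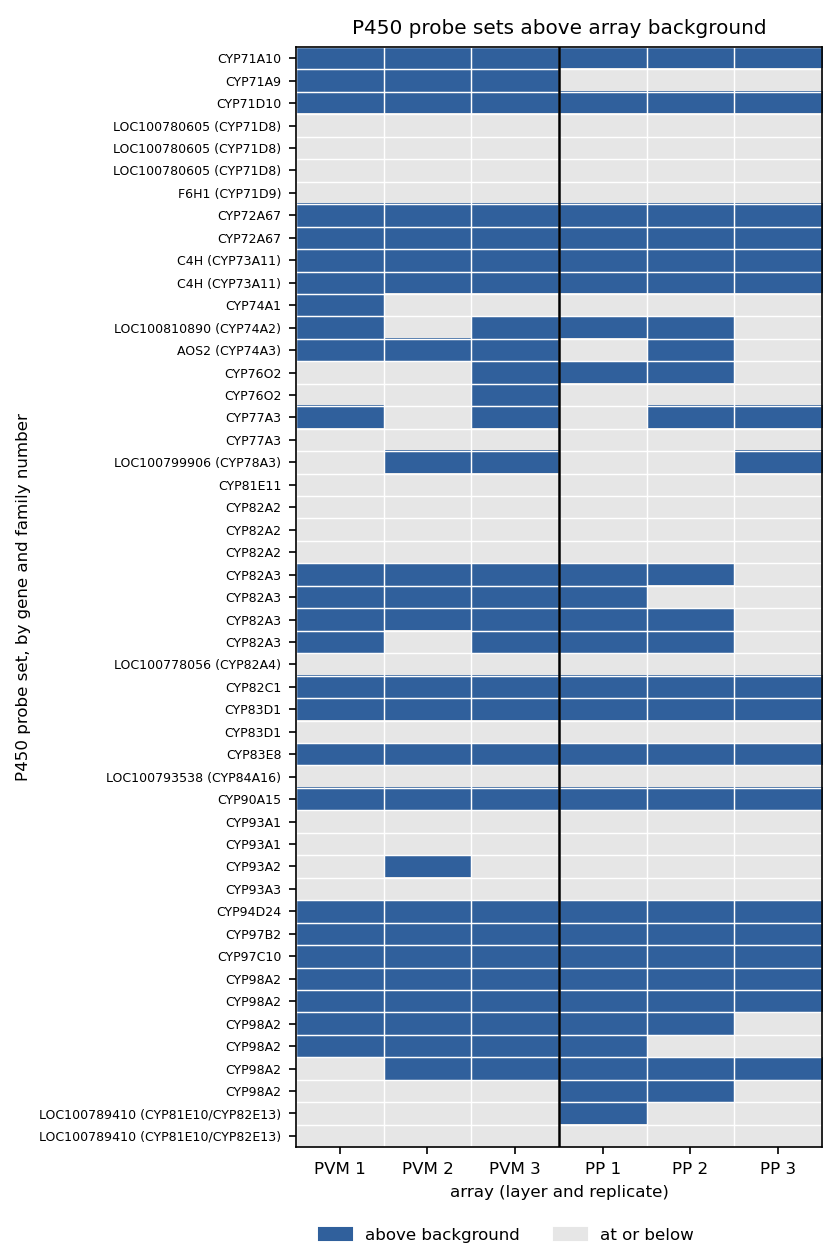
Each row is a P450 probe set and each column an array, with blue where the probe set lay above that array's background and grey where it lay at or below it. Of the 49 rows 16 are grey throughout, and PP array 3 has the fewest blue cells, 18 of 49.

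Per array, 25 to 29 of the P450 probe sets were above background in PVM, 26 and 25 on PP arrays 1 and 2, and 18 on PP array 3. The same array had the lowest share of all soybean probe sets above background, 58.4%, against 63.9% to 68.5% on the other arrays. Taking each gene by the probe set with the highest mean, 12 genes were above background on all 6 arrays: CYP71A10, CYP71D10, CYP72A67, C4H, CYP82C1, CYP83D1, CYP83E8, CYP90A15, CYP94D24, CYP97B2, CYP97C10 and CYP98A2. AOS2, CYP71A9 and CYP82A3 were above it on all PVM arrays and on 1, 0 and 2 PP arrays.

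A probe set entered the test if it exceeded background on 3 or more of the 6 arrays, as did 28 P450 probe sets for 19 genes. Values just inside this limit include CYP78A3 (LOC100799906), above background on 2 PVM arrays and 1 PP array at 15.5 to 59.6, and CYP71A9, above it on all 3 PVM arrays alone. Just outside it lies a probe set of CYP98A2, above background on 2 PP arrays at 18.8 and 19.8. The 21 probe sets left out reached at most 28.2. The remaining 11 genes had no tested probe set.

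**Figure D2:**
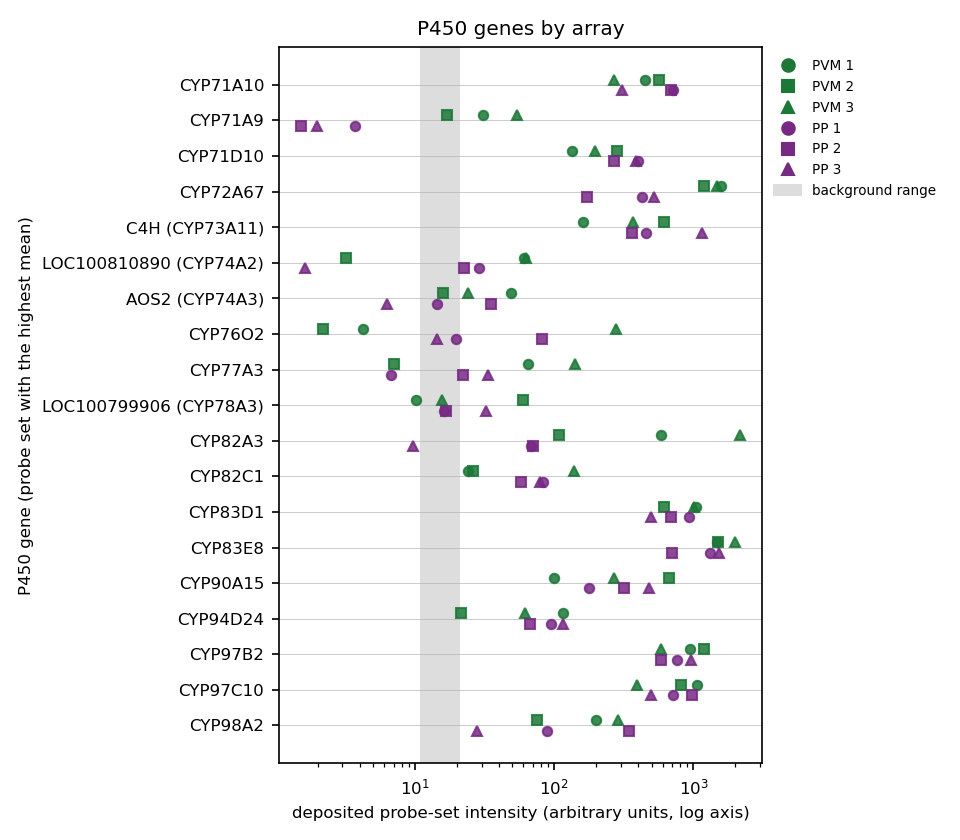
Deposited intensity of the probe set with the highest mean for each of the 19 tested P450 genes, on a log axis, with 1 point per array, PVM in green and PP in purple. The grey band spans the background of the 6 arrays, 11.0 to 20.7. The PVM points of CYP72A67, CYP71A9 and CYP82A3 lie to the right of all their PP points, while the layers overlap for every other gene.

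CYP72A67 was higher on every PVM array than on any PP array, on both of its probe sets, but passed the threshold on neither. The CYP72A subfamily contains triterpene oxidases, among them the soyasaponin enzyme of the soybean Sg-5 locus. A Medicago enzyme of the name CYP72A67 acts on saponin precursors. What soybean CYP72A67 acts on was not tested. Its first probe set measured 1579, 1186 and 1474 on PVM arrays 1 to 3, and 429.5, 170.4 and 520.1 on the PP arrays. The lowest PVM array lay above the highest PP array. The log2 difference, PVM minus PP, was 2.0 (SE 0.46, 95% interval 0.92 to 3.08), 4.00-fold on the normalized log2(intensity + 16) scale. Its adjusted p was 0.180 by limma, with Benjamini-Hochberg adjustment over all 25314 tested soybean probe sets, so it did not pass the threshold of 0.05.

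The second CYP72A67 probe set repeated the order of the layers with a wider spread. It measured 374, 1206 and 710.0 in PVM and 118, 20.4 and 285 in PP, again without overlap, and differed by 2.63 (SE 0.83, adjusted p = 0.292 by limma). PP array 2 was the lowest array on both probe sets. Without that array the difference of the first fell to 1.54.

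CYP82A3, a soybean P450 known for its response to stress and defence hormones, had the largest fitted difference among the tested P450 genes and very uneven PVM arrays. Its probe set with the highest mean measured 580.3, 107 and 2166 on the PVM arrays and 68.4, 70.7 and 9.64 on the PP arrays. All PVM values lay above all PP values, yet the PVM arrays ranged far more widely than the layers' nearest arrays lay apart. The log2 difference was 3.34 (SE 1.03, 95% interval 0.94 to 5.74, adjusted p = 0.280 by limma). It was 2.31 without PVM array 3 and 4.40 without PVM array 2. MYB60, listed as a guard cell marker, was also highest on PVM array 3, but its lowest PVM array was array 1, not array 2. A probe set above background on all 3 PVM arrays measured 22.9, 33.9 and 190 in PVM and 1.23, 12.7 and 10.2 in PP. Its log2 difference was 1.78, and that of the other tested probe set was 0.72. After normalization, PVM array 3 was also the highest PVM array on 7 of 11 tested green mesophyll probe sets. The same held for 7 of 23 PVM marker probe sets, 0 of 3 vascular ones and 32.7% of all tested soybean probe sets. The part of guard cells in the CYP82A3 values was not tested.

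Its 3 other probe sets shared the array pattern within PVM, with array 3 highest and array 2 lowest on each. They measured 512, 83.9 and 1434, then 369, 50.6 and 1530, then 39.9, 3.92 and 582 on PVM arrays 1 to 3. On the PP arrays they measured 92.3, 15.3 and 6.72, then 32.8, 51.3 and 0.924, then 22.0, 62.1 and 0.277. The deposited values of the layers overlapped on all 3 sets. On PP array 3 all 4 probe sets were at or below background, the highest reading being 9.64. The log2 differences of these 3 were 3.43, 3.29 and 1.36, and after normalization the layers overlapped on the last alone. On the probe set with the highest mean the SD of the PVM arrays was 2.09 on the log2 scale, above that of 99.3% of tested soybean probe sets. The median SD was 0.87 in PVM over the 28 tested P450 probe sets and 0.56 over all tested soybean probe sets. In PP these medians were 0.66 and 0.44.

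**Figure D3:**
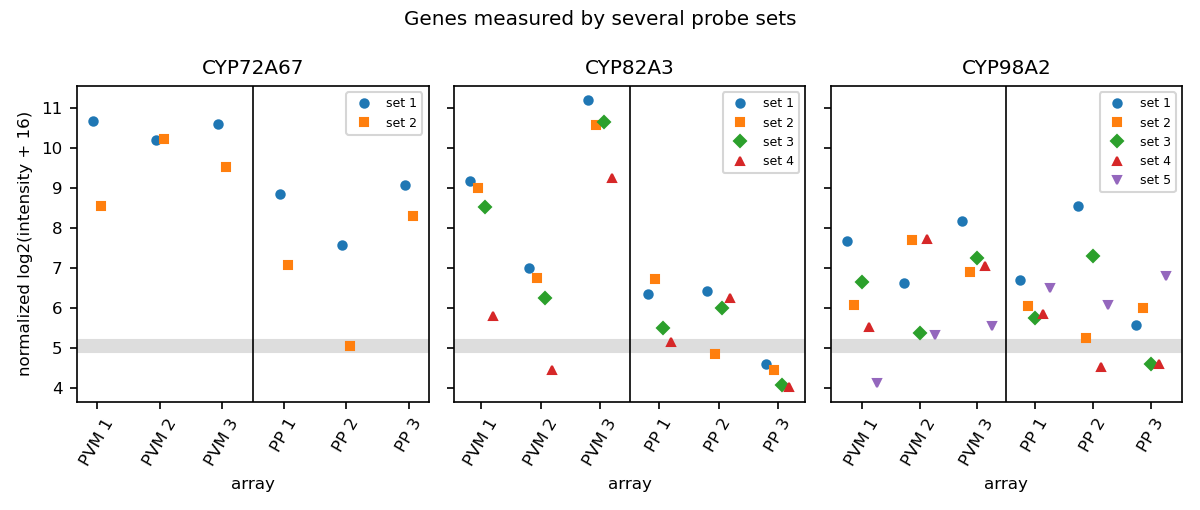
Normalized log2(intensity + 16) of every tested probe set of CYP72A67, CYP82A3 and CYP98A2 on each array, with a symbol per probe set and the range of array background in grey. The 4 sets of CYP82A3 are highest on PVM array 3 and lowest on PP array 3. The 5 sets of CYP98A2 do not all share an order of arrays, though some of them do.

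The other genes of the CYP82 family gave other values. CYP82C1 measured 23.9, 26.0 and 139 in PVM and 82.8, 57.9 and 78.6 in PP, so the layers overlapped, with a log2 difference of -0.45 (SE 0.51). PVM array 3 was again the highest PVM array. All 3 probe sets of CYP82A2 and the probe set of CYP82A4 (LOC100778056) were at or below background on every array, reaching at most 15.0 and 4.38.

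CYP71A9 was above background on PVM arrays only. It measured 30.8, 16.9 and 53.7 on the PVM arrays and 3.69, 1.51 and 1.96 on the PP arrays. Since no PP array exceeded background, each PP value was set at that array's background to give a lower bound. On the normalized log2(intensity + 16) scale, not that of the deposited intensities, its PVM mean was at least 1.45-fold higher than the PP mean. It had the smallest p of the P450 probe sets (adjusted p = 0.174 by limma, fitted log2 difference 1.42, SE 0.31). That fitted value depends on the constant added before taking logs, at 3.49 with 1 and 0.55 with 64 in place of 16. CYP71A9 passed the filter only through its PVM arrays. Across all soybean probe sets, 290 were above background on all PVM arrays and no PP array, and 73 the other way round; among P450 probe sets these counts were 1 and 0.

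Its CYP71 relatives gave other values. CYP71D10 measured 134, 284 and 195 in PVM against 398, 269 and 384 in PP. The deposited values overlap at 1 array of each layer. After normalization all PVM values were below all PP values, but only just, with PVM array 2 at 8.18 and PP array 2 at 8.20. The log2 difference was -0.88 (SE 0.38, 95% interval -1.78 to 0.01, adjusted p = 0.415 by limma). CYP71A10, known from soybean as an enzyme that breaks down phenylurea herbicides, measured 448, 563 and 268 in PVM and 707, 692 and 308 in PP. Array 3 was lowest in each layer, the layers overlapped, and the difference was -0.48 (SE 0.45), or -0.19 without PVM array 3 and -0.85 without PP array 3. The 3 probe sets of CYP71D8 (LOC100780605) and that of the flavonoid 6-hydroxylase F6H1 (CYP71D9) were at or below background on every array, with highest readings of 8.57 and 12.1.

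Among phenylpropanoid P450s, C4H (CYP73A11), which hydroxylates cinnamate at the entry of the pathway, was present in both layers. Its first probe set measured 159.7, 616 and 371 in PVM and 455, 364 and 1145 in PP. Its second measured 254, 74.2 and 412 in PVM and 298, 329 and 493 in PP. The layers overlapped on both, and PVM array 2 was the highest PVM array on the first and the lowest on the second. The log2 differences were -0.84 (SE 0.59) and -0.82 (SE 0.56), with intervals of -2.22 to 0.55 and -2.13 to 0.48.

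CYP98A2, of the family that adds the next ring hydroxyl on the way to lignin, differed in direction between its probe sets. It has 6, of which 5 were tested; 4 were higher in PVM, and the log2 differences ran from -1.47 to 1.77. The lowest came from values of 1.14, 16.6 and 38.4 in PVM and 76.6, 54.5 and 83.6 in PP, with no overlap (SE 0.46, adjusted p = 0.291 by limma). The highest came from 29.4, 199 and 131 in PVM and 45.2, 8.69 and 9.33 in PP, with PVM array 1 below PP array 1 (SE 0.64, adjusted p = 0.339 by limma). Another, at 53.7, 196 and 119.9 in PVM and 53.6, 25.6 and 40.6 in PP, did not overlap and differed by 1.13 (SE 0.49, adjusted p = 0.415 by limma). The probe sets with differences of 1.13 and 1.77 both had PVM array 2 highest and PP array 2 lowest. The probe set with the highest mean, at 199.9, 74.9 and 285 in PVM and 89.1, 345 and 27.9 in PP, overlapped widely and differed by 0.55 (SE 0.78). The remaining tested set had the same order of arrays, at 90.5, 18.0 and 149.9 in PVM and 41.1, 138 and 9.28 in PP (0.55, SE 0.76). Of the 6, 5 carry a name mark (_a or _x), and all such marks were counted here as shared sequence whatever the letter. The probe set with the highest mean and that with the difference of -1.47 carry _a, and the unmarked one is that with 1.77. Since the probe sets differ in direction, the gene's level between layers is uncertain here. The part of the marks in this was not tested. CYP84A16 (LOC100793538), of the ferulate 5-hydroxylase family of Arabidopsis, reached at most 10.7 and was at or below background on every array.

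The CYP93A and CYP81E genes, of isoflavonoid and pterocarpan defence, were at or near background in both layers. CYP93A1 is the dihydroxypterocarpan 6a-hydroxylase of glyceollin synthesis, and its probe sets reached at most 14.4. CYP93A3 reached 7.46, and both were at or below background on every array. CYP93A2 exceeded background on PVM array 2 alone, at 15.0, with the other 5 arrays between 0.160 and 1.07. CYP93A1 and CYP93A3 lie on the same chromosome with 15 annotated genes between them in the RefSeq table for Glycine_max_v4.0. CYP81E11, of a family that hydroxylates isoflavones in other legumes, reached 12.8 at most and was at or below background throughout. LOC100789410 was above background on PP array 1 alone, at 18.3.

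Carotenoid-related P450s, which act in the plastid, overlapped between the layers. The CYP97 family includes the carotenoid ring hydroxylases known from Arabidopsis. CYP97B2 measured 937, 1191 and 586 in PVM and 763, 583 and 966 in PP, and the log2 difference was 0.19 (SE 0.38, 95% interval -0.69 to 1.08). CYP97C10 measured 1062, 808 and 390.4 in PVM and 712, 981 and 493 in PP, a difference of -0.05 (SE 0.47, 95% interval -1.15 to 1.05). The sign of CYP97B2 turned without PVM array 2 (-0.02), and that of CYP97C10 without PVM array 3 (0.35) or PP array 2 (0.18).

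The CYP74 family makes oxylipins from fatty acid hydroperoxides, without the usual reductase, and was near background. AOS2 (CYP74A3), an allene oxide synthase by name, which would stand at the entry of jasmonate synthesis, measured 48.8, 15.9 and 24.1 in PVM and 14.4, 34.8 and 6.25 in PP. LOC100810890, whose synonyms name both CYP74A2 and hydroperoxide lyase, measured 60.3, 3.20 and 63.1 in PVM and 28.6, 22.5 and 1.62 in PP. The layers overlapped on both, with log2 differences of 0.54 (SE 0.42) and 0.68 (SE 0.59). CYP74A1 was above background on PVM array 1 alone, at 26.6.

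The CYP83 genes were bright in both layers. CYP83E8 measured 1487, 1504 and 1979 in PVM and 1305, 699 and 1530 in PP. Its deposited values overlapped at PP array 3, and after normalization the PVM values lay above the PP values by 0.61 (SE 0.39, 95% interval -0.29 to 1.52, adjusted p = 0.575 by limma). Leaving out PP array 2 gave 0.31, and leaving out PP array 3 gave 0.81. CYP83D1 measured 1048, 611 and 1011 in PVM and 932, 692 and 498 in PP, overlapping, with a difference of 0.30 (SE 0.40), or 0.079 without PP array 3 and 0.59 without PVM array 2. A second probe set of CYP83D1 was at or below background on every array, at most 13.3.

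Among hormone and growth P450s, CYP90A15 belongs to the family of the brassinosteroid enzyme CPD of Arabidopsis. It measured 99.3, 664 and 268 in PVM and 179, 319 and 479.7 in PP, a difference of -0.28 (SE 0.68). The PP values all lay inside the range of the PVM arrays. CYP78A3 (LOC100799906), of the family of the Arabidopsis organ-size gene KLU, measured 10.1, 59.6 and 15.5 in PVM and 16.1, 16.6 and 32.5 in PP, a difference of 0.17 (SE 0.52).

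Of the remaining families, CYP94 and CYP77 include enzymes of Arabidopsis that oxidise fatty acids. CYP94D24 measured 116, 21.4 and 62.1 in PVM and 95.5, 67.3 and 116 in PP (-0.59, SE 0.46). CYP77A3 measured 64.5, 7.05 and 140.4 in PVM and 6.75, 22.1 and 33.5 in PP (0.92, SE 0.66), and its second probe set reached at most 11.8. The layers overlapped for both. CYP76O2 measured 4.20, 2.17 and 276 in PVM and 19.6, 81.7 and 14.5 in PP. Its log2 difference was 0.09 (SE 1.06). A second probe set was above background on PVM array 3 alone, at 28.2.

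**Figure D4:**
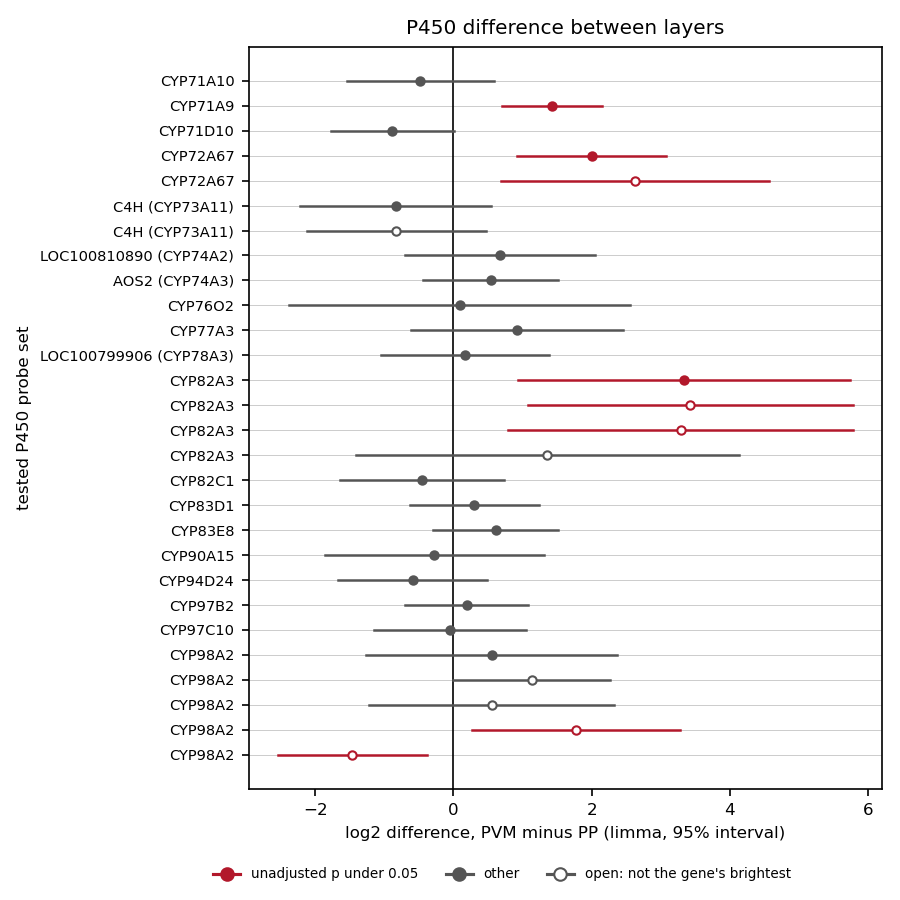
Log2 difference, PVM minus PP, with the 95% interval from limma for each of the 28 tested P450 probe sets, filled for the probe set with the highest mean of its gene and open for the others, red where the unadjusted p was under 0.05. The red intervals belong to CYP71A9, CYP72A67, CYP82A3 and CYP98A2, and those of CYP98A2 lie on both sides of 0.

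Over the tested probe sets together, none of the 28 passed at an adjusted p under 0.05 by limma, with adjusted p values from 0.174 to 0.983. In the same fit 11 of 25314 soybean probe sets passed (0.0435%). At an unadjusted p under 0.05, 8 of the 28 (28.6%) were counted, against 12.2% of all tested. Of these 8, 7 were higher in PVM (background 6.53%) and 1 was lower (background 5.63%). The 8 belong to 4 genes, with 3 probe sets of CYP82A3, 2 each of CYP72A67 and CYP98A2, and 1 of CYP71A9. With 1 probe set per gene the count was 3 of 19 (15.8%). The 12.2% is a share of probe sets, several of them for some genes. No share over all genes with 1 probe set each is given to set beside it.

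Without overlap between layers after normalization were 10 of the 28 (35.7%), against 18.7% of all tested. PVM lay above PP on 8 (background 8.62%) and below it on 2 (background 10.1%). By gene these were 5 of 19 (26.3%): CYP71A9, CYP72A67, CYP82A3 and CYP83E8 with PVM above, and CYP71D10 with PVM below. Some of the 10 gaps were narrow, by the nearest PVM and PP arrays on the normalized log2 scale. These were 8.18 and 8.20 for CYP71D10, and 10.55 and 10.52 for CYP83E8. For 1 probe set each of CYP82A3 and CYP98A2 they were 6.75 and 6.74, and 6.08 and 6.05. In the deposited intensities 6 of the 28 (21.4%) did not overlap, 5 with PVM above and 1 below, against 19.7% of all tested. By gene these were 3 of 19, CYP71A9, CYP72A67 and CYP82A3. The median log2 difference was 0.55 over the 28 probe sets, 0.19 over 19 genes and -0.06 over all tested soybean probe sets. Leaving out PP array 3 gave 0.29 for the first of these, and leaving out PVM array 3 gave 0.36. Of the 28, 19 differences were above 0, against 46.3% of all tested. Probe sets of a gene are not independent, and CYP71A9 passed the filter only through the layer where it was higher, so these shares describe the list and are no test of it.

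Genes whose enzymes act next to these P450s were listed by symbol, with earlier results of these data known. None of the listed electron donors (P450 reductases and cytochrome b5) was annotated on the array under the names searched. Of 21 tested phenylpropanoid and flavonoid probe sets, 12 were higher and 9 lower in PVM (median 0.19 on the log2 scale), 4 of them higher in PVM at an unadjusted p under 0.05 (background 6.53%) and none past the threshold by limma. Taking each gene by the probe set with the highest mean, the smallest p values belonged to the isoflavone synthase IFS2 (2.24), the flavanone hydroxylase F3H (1.11), the chalcone synthase CHS8 (0.81) and the chalcone isomerase CHI4A (0.98, or 1.67 on its other probe set). CHS8 did not exceed background on any PP array. PAL2.1, phenylalanine ammonia-lyase, which supplies cinnamate to C4H, differed by 0.19 and by -0.64 on its tested probe sets.

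Genes listed for triterpene steps, a pathway of some CYP72A enzymes, had 4 of 6 tested probe sets higher in PVM. None passed the threshold by limma, and all 4 had an unadjusted p under 0.05 (background 6.53%). They belong to the soyasaponin glycosyltransferases SGT2 (2.81) and SGT3 (2.02) and to the amyrin synthase AMS1 (2.83). The probe sets lower in PVM, at -0.22 and -0.27, are those of a second gene with the synonym SGT3, LOC732565. That gene is listed here through this synonym alone, so its place in the pathway is uncertain. Oxylipin genes measured higher in PVM on 22 of 23 tested probe sets (median log2 difference 1.94). Of these 23, 19 were higher at an unadjusted p under 0.05, against a background of 6.53%, and none passed the threshold. The count is no independent observation, since 13 of the 23 belong to LOX7, LOX9 and LOXB1, the PVM markers above. Of the other 10, 9 were higher, 6 of them at an unadjusted p under 0.05 (median 1.36). By the probe set with the highest mean, the smallest p values were those of LOC547835 (LOX1.4, 2.48), LOX9 (2.20), LOX7 (2.28) and LOXB1 (1.86, and up to 2.68 on its other probe sets). The single lower probe set, at -0.66, is also of LOC547835. Of the gibberellin genes, GA20OX3 differed by -1.83 (adjusted p = 0.373 by limma) and GA2OX8 by 0.65.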

How the data were processed

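The deposited table holds a linear intensity for each probe set on each array, which the authors summarised and scaled by steps not given in the sources used here. Its 2% trimmed mean was 125 on every array, while medians ran from 7.08 to 12.9. After adding 16 and taking log2, the 6 arrays were quantile-normalized on all 61170 probe sets together. Median soybean intensity was 34.7 to 54.3 per array. Precision is limited by the number of arrays.

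Layers were compared over 25314 soybean probe sets with a 2-sided moderated test without covariates (lmFit and eBayes of limma 3.58.1, R 4.3.3). A Benjamini-Hochberg adjusted p under 0.05 passed. The fit was first tested on simulated data, with 50 changed probe sets of each size. It recovered 28% of those with a log2 difference of 2, 50% at 3, 82% at 4 and 78% at 5. Of 126 calls, 7 were false. The real fit made 11 calls. A Benjamini-Hochberg threshold is stricter with fewer calls, so the recovered shares may be too high for the real data. A probe set that did not pass may therefore still differ by the sizes fitted for CYP72A67 or CYP82A3. Fitted differences understate the change of dim probe sets.

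Symbols came from the platform annotation, updated with synonyms through the RefSeq gene table of Glycine_max_v4.0. All 49 P450 probe sets matched it, 36 by symbol and 13 through a synonym alone. The values come with no genome build, so no coordinates are given, and no sequences are shown. Of soybean probe sets, 28546 have no symbol here and 373 have several, so further P450 genes may be among them. CHI matches were limited to names with a digit after CHI. Members and lists were chosen with earlier results of these data known.

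Named with the value of every array were to be genes past the threshold, genes whose layers did not overlap, genes detected in 1 layer only, and the 6 with the highest mean. The other tested genes were given in the same way, as a choice made after their values were seen. For partner genes, each taken by its probe set with the highest mean, the 4 smallest p values per group were named. Replicate numbers come from the titles. Deviations from the layer means of same-numbered arrays correlated at 0.02, 0.03 and 0.05. Pairs across layers with different numbers correlated at -0.04 to 0.01, all lower. These values are small and do not settle if the numbers pair the samples. The main fit used no pairing, and a fit with the replicate number as a block is among the alternatives.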

Additional observations from a re-analysis of the deposited data

How the results depend on the processing

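No P450 probe set passed an adjusted p of 0.05 by limma under any of the 17 alternatives. The lowest adjusted p of a named gene was 0.0524, for CYP72A67 with an intensity trend and robust prior. The number of P450 probe sets at an unadjusted p under 0.05 was 8 of 28. It was 5 of 18 without probe sets that carry a name mark (_a, _s or _x), and 3 of 19 with 1 probe set per gene. It was 10 of 23 with a filter on all 3 arrays of a layer and 10 of 49 with no filter. These alternatives change how many probe sets are tested. Shares over all tested soybean probe sets are not given for them, so the counts are not compared with background. With 1 array left out the number ran from 6 to 9. With 1 array left out the median difference ran from 0.29 to 0.72, and over the other alternatives from 0.17 with no filter, which adds probe sets at background, to 0.66 with a pseudocount of 1. Of 30 unmarked P450 probe sets, 8 were above background on no array. With 1 array left out CYP97B2 (0.19) ran from -0.021 to 0.46 and CYP97C10 (-0.05) from -0.37 to 0.35. CYP97C10 also turned to 0.071 with PP arrays 1 and 2 averaged, an alternative chosen after seeing the data. The causes were not tested.

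Over all soybean probe sets, the 11 calls higher in PVM became 0 with the replicate block, 5 with no filter, 1 with a pseudocount of 1, 54 with 64, 136 with the intensity trend, 4 with 1 probe set per gene, 0 with PP arrays 1 and 2 averaged, and 0 to 3 with 1 array left out. Calls lower in PVM, 0 otherwise, were 3 with a pseudocount of 64 and 13 with the intensity trend. Under the replicate block the P450 count at an unadjusted p under 0.05 was 7, and the block changed no call of a P450 gene.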
